A study of Mus musculus with 6 samples.

Results

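The unfolded protein response and the integrated stress response were followed in BV2 cells, an immortalized mouse microglial line, through 37 genes listed by symbol. The list was chosen with earlier results of these data known. All 37 had a probe that could be tested, among 29752 genes and unnamed transcripts tested on the array. The IL-4 group (3 samples) received 10 ng/ml recombinant mouse interleukin-4, a cytokine used to drive microglia towards an alternatively activated (M2) state, and the PBS group (3 samples) received PBS, the vehicle, each for 24 hr. No genetic change and no other agent is named for any sample, and the series' design text calls the PBS group untreated. BV2 is 1 immortalized line, and the labels do not say whether the 3 replicates of a group were separate cultures, so the p-values cover only the variation among these samples, some of which may be technical.

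Total RNA was labelled with Cy3 and hybridised to single-colour Agilent arrays, 1 sample per array. Each value is the log2 of the scanner's processed signal minus the 75th percentile of its array, so that 0 is the 75th percentile. Values of different genes come from different probes and are not set against each other. By the scan times and array positions in the file headers, slide 1 carried all IL-4 arrays together with PBS replicate 1, while slide 2 carried the remaining PBS arrays (replicates 2 and 3). Over the tested genes and unnamed transcripts, PBS replicate 1 correlated more closely with the IL-4 arrays (Pearson r 0.9945 to 0.9965) than with the other PBS arrays (0.9886 and 0.9893). Differences are therefore given over all 6 arrays and also within slide 1, where the 3 IL-4 arrays face 1 PBS array. Between 87.9% and 98.0% of the 39429 probes were well above background on each array, and no spot was saturated. Arg1, the arginase that marks the response to IL-4, was higher by 2.02 ± 0.16 on the log2 scale (SE, n = 3 per group; limma adjusted p = 0.011), and by 2.29 within slide 1. Of 13 microglia and macrophage markers, 12 had a probe and all 12 were well above background on all 6 arrays. Of the 12, 3 (Aif1, Tyrobp and Lyz2) were lower with IL-4 and 0 higher, and 7 had a limma unadjusted p under 0.05. Their summed level, as log2, was 5.67 to 5.76 with IL-4 and 5.79 to 6.05 with PBS. Of 23 markers of other cell types, 20 were also well above background on all 6 arrays, so that detection by itself did not separate cell types. Limma called 0 of the 23, and 7 had an unadjusted p under 0.05. Over all genes tested limma called 0.807% higher and 2.54% lower, and 34.1% had an unadjusted p under 0.05. The summed levels of these other markers were higher on the IL-4 arrays without overlap for 4 of the 6 lists. The gap was widest for T and B lymphocyte genes (0.75 to 0.84 against -0.34 to 0.47). It was narrowest for astrocyte genes (-1.0 to -0.92 against -1.1 to -1.01), summed without Aqp4, which had no value on PBS replicate 3. Aqp4 alone read 3.17, 3.69 and 4.11 with IL-4 and 3.83 and 3.33 in PBS replicates 1 and 2, with overlap. The astrocyte result therefore holds only for the other genes of that list. What part these marker levels have in the results below was not tested. All samples are of 1 cell line, so the levels are not read as numbers of cells of each type.

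The unfolded protein response is the reaction of a cell to misfolded protein in the endoplasmic reticulum (ER). It has a sensor for each of its arms, IRE1 (Ern1), ATF6 and PERK (Eif2ak3), and raises the chaperones that fold proteins and the machinery that removes those that fail. PERK also belongs to the integrated stress response, in which kinases such as GCN2 (Eif2ak4), the sensor of uncharged tRNA, phosphorylate the translation factor eIF2. This slows protein synthesis while favouring translation of ATF4, a transcription factor that raises genes of amino acid synthesis and the phosphatase subunit GADD34 (Ppp1r15a), which reverses the phosphorylation. In microglia and other macrophages both responses accompany activation, when secretion and metabolism change. The arrays measured mRNA levels only, so neither the splicing of Xbp1 nor the phosphorylation of eIF2 was observed.

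The promoter windows of the members were searched for the elements through which these responses act, and those of 5 genes that the results turn on are printed whole. RefSeq windows of 300 bases (250 before to 50 after the annotated start, build GRCm38.p6) were found for 33 of the 37 members; Atf6, Hyou1, Manf and Ppp1r15b had no entry. Hspa5 lies at chr2:34771840-34772139 (plus strand), Hsp90b1 at chr10:86705395-86705694 (minus strand), Herpud1 at chr8:94386179-94386478 (plus strand), Trib3 at chr2:152344011-152344310 (minus strand) and Ppp1r15a at chr7:45526219-45526518 (minus strand). Each window runs 5′ to 3′ along the gene's own strand, in lower case with the letters of a motif match in capitals:
Hspa5: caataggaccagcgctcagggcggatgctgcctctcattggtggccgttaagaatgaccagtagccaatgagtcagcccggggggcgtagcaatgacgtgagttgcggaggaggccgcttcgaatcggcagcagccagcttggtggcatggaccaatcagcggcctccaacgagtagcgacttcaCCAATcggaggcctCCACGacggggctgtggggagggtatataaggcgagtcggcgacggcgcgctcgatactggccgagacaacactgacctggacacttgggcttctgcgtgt
Hsp90b1: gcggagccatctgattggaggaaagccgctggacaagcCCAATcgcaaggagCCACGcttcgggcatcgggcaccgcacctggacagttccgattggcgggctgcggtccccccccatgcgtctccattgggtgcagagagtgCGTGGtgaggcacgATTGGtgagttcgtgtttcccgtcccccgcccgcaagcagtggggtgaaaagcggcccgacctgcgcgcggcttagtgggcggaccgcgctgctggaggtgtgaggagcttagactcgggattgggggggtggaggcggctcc
Herpud1: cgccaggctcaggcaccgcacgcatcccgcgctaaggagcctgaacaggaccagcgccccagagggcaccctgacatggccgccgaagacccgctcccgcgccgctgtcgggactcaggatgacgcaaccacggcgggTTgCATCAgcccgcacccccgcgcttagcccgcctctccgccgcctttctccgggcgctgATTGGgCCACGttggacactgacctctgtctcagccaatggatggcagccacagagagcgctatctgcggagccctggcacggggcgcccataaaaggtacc
Trib3: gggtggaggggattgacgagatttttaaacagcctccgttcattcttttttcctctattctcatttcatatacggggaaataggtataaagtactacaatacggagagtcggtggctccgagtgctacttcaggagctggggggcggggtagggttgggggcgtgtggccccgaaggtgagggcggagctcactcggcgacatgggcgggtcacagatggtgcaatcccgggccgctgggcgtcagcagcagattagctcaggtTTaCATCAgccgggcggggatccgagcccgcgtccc
Ppp1r15a: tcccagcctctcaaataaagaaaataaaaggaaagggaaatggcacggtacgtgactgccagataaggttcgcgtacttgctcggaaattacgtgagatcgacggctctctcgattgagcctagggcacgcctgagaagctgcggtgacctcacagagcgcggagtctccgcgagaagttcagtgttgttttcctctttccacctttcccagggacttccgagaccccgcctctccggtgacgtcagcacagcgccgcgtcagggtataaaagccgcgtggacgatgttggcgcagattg

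In Hspa5 and Hsp90b1 the capitals mark the ER stress response element (ERSE), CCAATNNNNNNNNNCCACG, in which NF-Y and ATF6 bind either end; the second match in Hsp90b1 lies on the opposite strand. The capitals in Herpud1 mark ERSE-II (ATTGGNCCACG) and, on the opposite strand, the core of the C/EBP-ATF response element (CARE, TGATGNAA), which ATF4 binds with a partner. The capitals in Trib3 mark that CARE core on the opposite strand, and Ppp1r15a had no match to any motif searched. Both strands were searched, and the 4 motifs do not overlap each other in these windows. ERSE was found in 8 of the 33 member windows, against 0.137% of 27025 genes with a window (37 genes). The other 6 member genes that hold it, all of the folding or degradation machinery, are given here in the direction of the motif, with its fixed letters in capitals:
Calr: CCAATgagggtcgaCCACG
Canx: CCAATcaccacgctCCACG
Creld2: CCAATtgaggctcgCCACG
Dnajc3: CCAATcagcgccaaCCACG
Pdia6: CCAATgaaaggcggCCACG
Syvn1: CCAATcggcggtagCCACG

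The CARE core was found in 6 of the 33, against 4.51% of genes. Beside Herpud1 and Trib3 it lay in the windows of 4 genes of the integrated stress response, shown in the direction of the motif with its fixed letters in capitals:
Asns: TGATGaAA
Atf3: TGATGcAA
Chac1: TGATGcAA
Nupr1: TGATGcAA

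ERSE-II was found in Herpud1 alone among the members (0.0444% of genes). The UPRE core TGACGTGG, which XBP1 binds, was found in 0 of the 33 and in 0.714% of genes. These are matches of letters in a window and not measured binding. As no match says only that these letters are not in the window, nothing is drawn from it for the remaining members.

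IL-4 raised 1 of the 37 members, Ppp1r15a, and lowered 0 by limma at an adjusted p under 0.05, and 36 were not called. Over the whole array 0.807% of genes were called higher and 2.54% lower, together 3.35% (997 genes), so 1 in 37 members called is near the background. At an unadjusted p under 0.05, 11 members passed (8 with higher and 3 with lower means), and 34.1% of all genes did. Normexp background correction called 2030 genes higher and 2025 lower, where the reported scaling called 240 and 757. The 3 IL-4 arrays lay above all 3 PBS arrays for 11 members and below them for 6, with overlap for the other 20. Over all genes these shares were 18.1% and 19.8%. The median log2 difference of the members was 0.07, and of all genes -0.05.

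With the slide as a block, which gives the difference within slide 1, limma called 0 members and 0.0303% of all genes (9 genes). At an unadjusted p under 0.05 that fit held 3 members (Ppp1r15a, Nupr1 and Ddit3) and 10.2% of all genes. Within slide 1 all 3 IL-4 arrays lay above PBS replicate 1 for 22 members, against 30.5% of all genes, and below it for 6, against 25.5%. The difference was smaller within slide 1 than over 6 arrays for 23 members (62.2%; 75.1% of all genes) and had the other sign for 10 (27.0%; 22.7%).

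**Figure D1:**
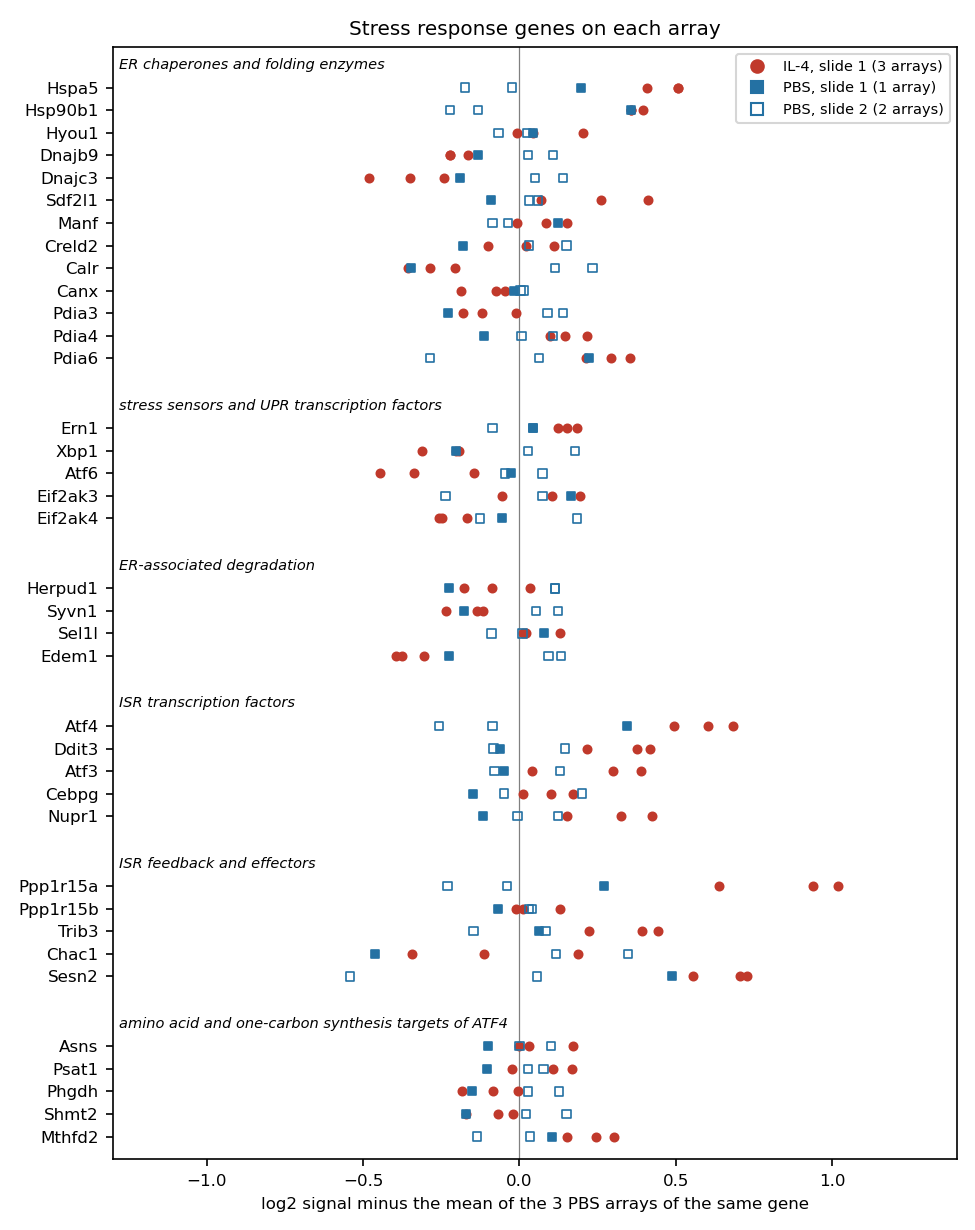
Each of the 37 genes on each of the 6 arrays, as the log2 signal minus the mean of the 3 PBS arrays of that gene, in lists by role. Red circles are IL-4 arrays, filled squares PBS replicate 1 (slide 1) and open squares PBS replicates 2 and 3 (slide 2). Ppp1r15a reaches furthest to the right, and for Sesn2, Hsp90b1 and Calr the filled square sits by the red circles.

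The lists differed in how far they stood from 0. They were drawn up with earlier results of these data known. The 15 transcription factors, feedback and effector genes and synthesis enzymes of the integrated stress response had a median log2 difference of 0.23, with 12 above 0, against 43.5% of all genes. In 7 of them the IL-4 arrays lay above all PBS arrays and in 0 below, against the 18.1% and 19.8% of all genes. The other 22 genes (chaperones, sensors and degradation) had a median of -0.03, 11 above 0, with 4 separated upwards and 6 downwards. Within slide 1 all 15 were above 0 (median 0.24, range 0.06 to 0.60), against 51.2% of all genes. In 14 of them, Phgdh excepted, every IL-4 array exceeded PBS replicate 1, against 30.5% of all genes. There the other 22 gave 12 above and 10 below 0, with a median of 0.01. The kinases PERK (Eif2ak3) and GCN2 (Eif2ak4), which act upstream in the integrated stress response, are listed with the sensors and so fall among the 22. Counted with the 15 instead, they gave 17 genes with a median of 0.09 and 13 above 0, and within slide 1 a median of 0.19 with 15 above and 2 below 0. The within-slide counts rest on 1 PBS array, which lay below the mean of the other PBS arrays for 10 of the 15 and for 59.7% of all genes. The all-gene shares were not matched for brightness. Of 10 near-equal groups of tested genes by brightness, the brightest held 18 members and the next 10, counting the 15 and 22 together. The typical log2 difference of genes in the brightest group was 0.021 over 6 arrays and 0.075 within slide 1. In the next group it was -0.116 and 0.004, and in the dimmest -0.103 and -0.082. The 15 were not tested against genes of like brightness.

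The size of these medians depended on the scaling. Over 6 arrays the median of the 15 was 0.11 with quantile normalization, 0.14 in the authors' table and 0.13 with normexp and quantile normalization, with 10, 10 and 11 genes above 0. Within slide 1 it was 0.10 in all 3 of these, under 0.5 times the reported 0.24. Over the other 6 scalings, run within slide 1 after the data were seen, 14 or 15 of the 15 stayed above 0. Of the 15, 12 to 14 had every IL-4 array above PBS replicate 1. The share of all genes so separated was 30.5% with the reported scaling and was not determined under these scalings. Over all genes 49.9% to 53.5% were above 0 within slide 1 in 5 of these scalings, and 72.2% with normexp at the 75th percentile. The other 22 members gave 8 to 12 above 0 there, with medians from -0.05 to 0.02. The difference between the 2 sets of genes was not tested.

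Ppp1r15a encodes GADD34, the inducible subunit that directs protein phosphatase 1 to eIF2. Its log2 levels were 4.33, 4.03 and 4.41 in IL-4 replicates 1 to 3 and 3.66, 3.35 and 3.16 in PBS replicates 1 to 3. Every IL-4 array lay above every PBS array, and the PBS array of slide 1 was the highest of its group. The mean was 4.26 ± 0.20 with IL-4 and 3.39 ± 0.25 with PBS (SD, n = 3 each). This is 1.82-fold higher with IL-4 (log2 difference 0.87, SE 0.16, limma adjusted p = 0.039). Within slide 1 the log2 difference was 0.60 (SE 0.17, adjusted p = 0.32 in limma with the slide block). The gene was called under 11 of 19 other ways of processing, with log2 differences from 0.60 to 1.00 over the 19 and adjusted p from 0.0023 to 0.4. The call was lost without any 1 of the IL-4 replicates, at adjusted p of 0.15, 0.11 and 0.14 for replicates 1, 2 and 3, without PBS replicate 2 (0.18) or 3 (0.14), and with every probe tested whether detected or not (0.072). Without PBS replicate 1, where treatment and slide cannot be told apart, the adjusted p was 0.0023.

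**Figure D2:**
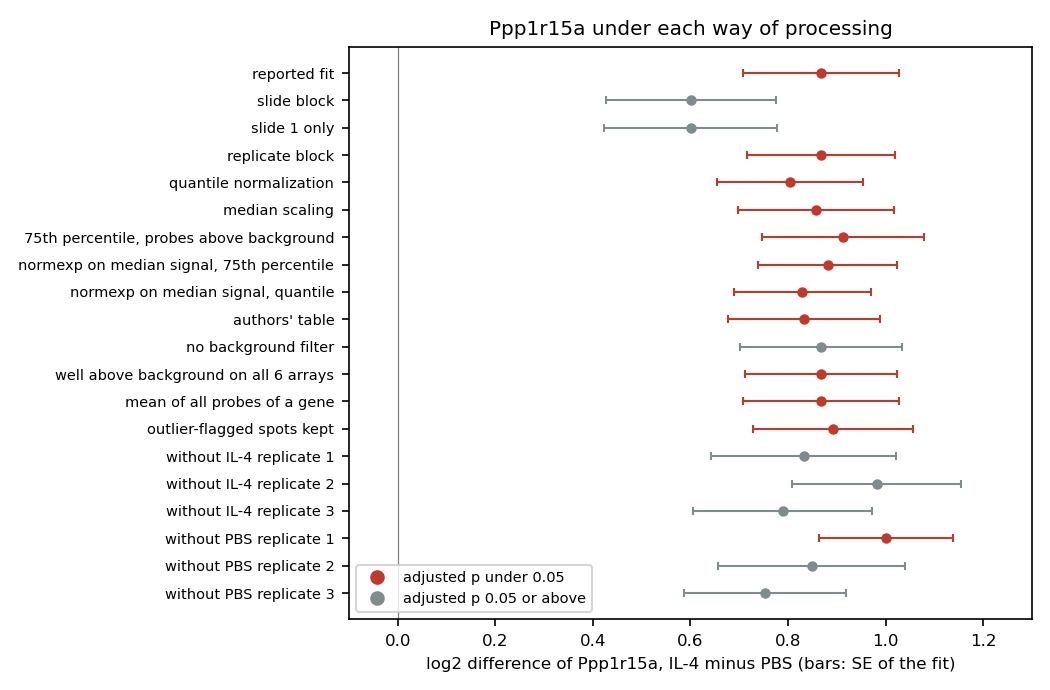
Log2 difference of Ppp1r15a, IL-4 minus PBS, under the reported fit and 19 other ways of processing the arrays; bars are the SE of each limma fit. All values lie above 0, between 0.60 and 1.00, and red marks those with an adjusted p under 0.05.

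The constitutive counterpart of GADD34, Ppp1r15b, had a log2 difference of 0.04 (SE 0.10), and 0.11 within slide 1, and its groups overlapped. Trib3 encodes a pseudokinase that restrains ATF4 and CHOP; its levels were 6.64, 6.42 and 6.59 with IL-4 and 6.26, 6.28 and 6.05 with PBS. The groups did not overlap, and the difference of 0.36 (SE 0.12, limma adjusted p = 0.079) was 0.30 within slide 1. It was 0.11 with quantile normalization and in the authors' table (limma adjusted p = 0.34 and 0.29). Sesn2 encodes sestrin 2, a leucine-binding restraint on the growth kinase complex mTORC1. Its levels were 4.48, 4.65 and 4.63 with IL-4 and 4.41, 3.98 and 3.38 with PBS. The PBS array of slide 1 was close to the IL-4 arrays and the other PBS arrays well below. Its difference of 0.66 (SE 0.23, limma adjusted p = 0.097) was 0.17 within slide 1 and 0.39 without PBS replicate 3. Chac1, which degrades glutathione, lay the other way: its difference was -0.09 over 6 arrays and 0.37 within slide 1, since PBS replicate 1 was 0.69 below the mean of the other PBS arrays (PBS1 minus the others, -0.69).

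Of the transcription factors of the integrated stress response, all 5 had a log2 difference above 0 over 6 arrays (median 0.30) and within slide 1 (median 0.30, from 0.24 to 0.42), and none was called by limma, 3 having an unadjusted p under 0.05. Atf4, the central factor, read 6.75, 6.56 and 6.67 with IL-4 and 6.41, 5.98 and 5.81 with PBS. The groups did not overlap, and PBS replicate 1 stood between the others and the IL-4 arrays. The difference was 0.59 (SE 0.16, limma adjusted p = 0.063), and 0.24 within slide 1. It was 0.36 with quantile normalization and in the authors' table and 0.26 with the mean of both Atf4 probes (limma adjusted p = 0.11, 0.11 and 0.13). Ddit3 encodes CHOP, the factor tied to cell death under lasting ER stress. It read 2.39, 2.19 and 2.35 with IL-4 and 1.91, 2.12 and 1.89 with PBS, a difference of 0.33 (SE 0.11, limma adjusted p = 0.09) without overlap. Nupr1, a small chromatin-associated stress protein, read 3.54, 3.27 and 3.44 against 3.00, 3.24 and 3.11, a difference of 0.30 (SE 0.12, limma adjusted p = 0.12), again without overlap. In these genes, unlike Atf4 and Sesn2, the difference was no smaller within slide 1, at 0.40 for Ddit3 and 0.42 for Nupr1. The groups of Atf3, a repressor of the same family, and of Cebpg, a partner of ATF4, overlapped, with log2 differences of 0.25 and 0.09 over 6 arrays and 0.30 and 0.24 within slide 1.

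**Figure D3:**
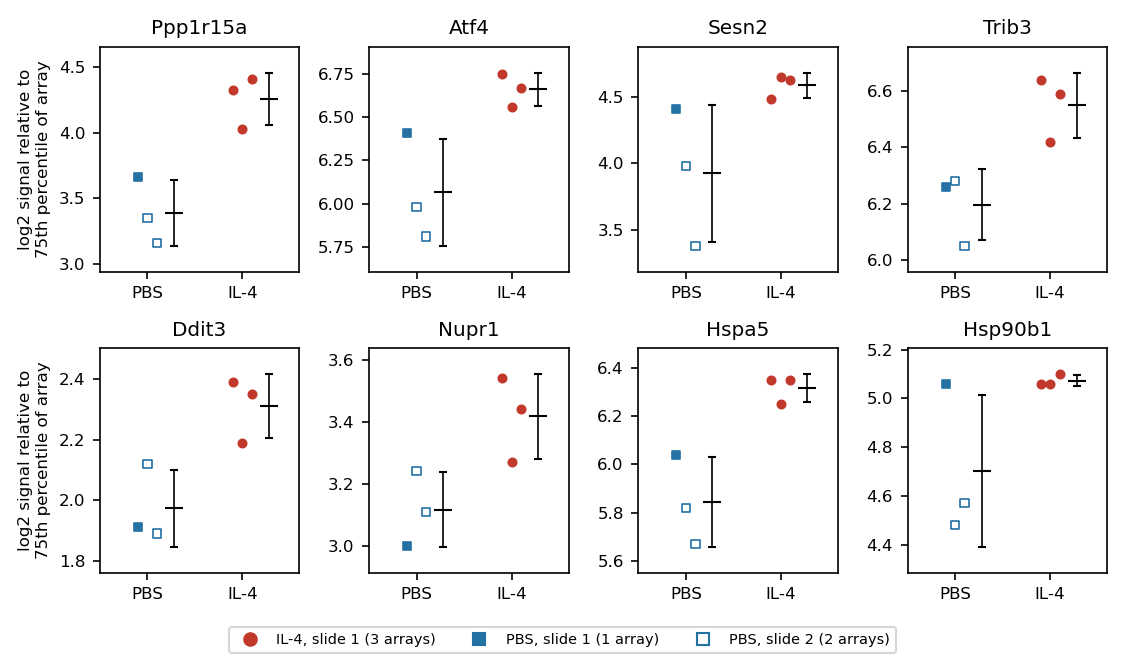
Scaled log2 signal (0 is the 75th percentile of an array) of 8 stress genes, with 1 point per array and the mean ± SD of each group of 3 beside it; each panel has its own scale. For Sesn2 and Hsp90b1 the PBS array of slide 1 (filled square) lies close to the IL-4 arrays, while for Ddit3 and Nupr1 it lies with the other PBS arrays.

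The enzymes of amino acid and one-carbon synthesis that ATF4 raises showed small differences. The 5 genes had a median log2 difference of 0.07 over 6 arrays and 0.13 within slide 1, limma called none, and 0 had an unadjusted p under 0.05. Mthfd2, a mitochondrial folate enzyme, read 3.55, 3.40 and 3.49 with IL-4 and 3.35, 3.28 and 3.11 with PBS. It was the only 1 of the 5 whose groups did not overlap (difference 0.23, SE 0.11, limma adjusted p = 0.17; 0.13 within slide 1). Phgdh, which opens serine synthesis, read 3.43, 3.25 and 3.35 against 3.28, 3.56 and 3.46. Shmt2, which passes the carbon of serine to folate, read 1.5, 1.35 and 1.45 against 1.35, 1.67 and 1.54. In both genes the groups overlapped and the PBS array of slide 1 was the lowest of its group, so that the difference was -0.09 over 6 arrays in each and 0.06 and 0.08 within slide 1. Asparagine synthetase (Asns) and Psat1, the next enzyme of serine synthesis, had differences of 0.07 and 0.08, and 0.17 and 0.19 within slide 1; over 6 arrays these turned to -0.10 and -0.11 with quantile normalization.

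Among the 13 ER chaperones and folding enzymes limma called none, 3 had an unadjusted p under 0.05, and the median log2 difference was 0.07 (0.06 within slide 1). Hspa5 encodes BiP, the abundant ER chaperone whose release starts the sensors and whose promoter holds the ERSE shown above. It read 6.35, 6.25 and 6.35 with IL-4 and 6.04, 5.82 and 5.67 with PBS, without overlap. The difference was 0.47 (SE 0.12, limma adjusted p = 0.059), and 0.28 within slide 1. It was 0.22 with quantile normalization and 0.23 in the authors' table and with normexp and quantile normalization (limma adjusted p = 0.13, 0.12 and 0.078). Hsp90b1 (GRP94), with ERSE in both directions, read 5.06, 5.06 and 5.10 with IL-4 and 5.06, 4.48 and 4.57 with PBS. Its difference of 0.37 (SE 0.15, limma adjusted p = 0.14) came down to 0.02 within slide 1, where PBS replicate 1 read like the IL-4 arrays, and was 0.23 with quantile normalization. Sdf2l1, a partner of BiP cochaperones, read 0.50, 0.16 and 0.35 against 0.00, 0.12 and 0.15, a difference of 0.25 over 6 arrays and 0.34 within slide 1, with the nearest arrays of the 2 groups almost touching.

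Other chaperones read lower with IL-4. Dnajc3, a BiP cochaperone (p58IPK), read -1.29, -1.16 and -1.05 with IL-4 and -1.0, -0.76 and -0.67 with PBS, a difference of -0.35 (SE 0.12, limma adjusted p = 0.095), and -0.17 within slide 1. Dnajb9 (ERdj4), a target of XBP1, read 0.74, 0.68 and 0.68 against 0.77, 1.01 and 0.93, and the lectin chaperone Canx read 3.66, 3.52 and 3.63 against 3.69, 3.72 and 3.71. In these 3 genes every IL-4 array was below every PBS array, for Dnajb9 by its brighter probe only. The differences of Dnajb9 and Canx were -0.20 and -0.10 over 6 arrays and -0.07 and -0.09 within slide 1. Calreticulin (Calr), the soluble relative of Canx, had a difference of -0.28 over 6 arrays and 0.07 within slide 1. The protein disulfide isomerases gave 0.29 (Pdia6), 0.15 (Pdia4) and -0.10 (Pdia3), and 0.06, 0.26 and 0.12 within slide 1. The Pdia6 value was 0.06 with quantile normalization. The chaperone Hyou1 and the secreted ER stress proteins Manf and Creld2 gave 0.08, 0.07 and 0.01, all with overlapping groups, and 0.04, -0.05 and 0.19 within slide 1. Over the 8 genes with an ERSE match, 4 log2 differences were above and 4 below 0 (from -0.35 to 0.47), and 6 and 2 within slide 1. Over the 6 genes with a CARE match, 4 were above and 2 below, and within slide 1 all 6 were above 0 (0.15 to 0.42). Of all genes 43.5% were above 0 over 6 arrays and 51.2% within slide 1, shares not matched for brightness. Within slide 1 all 15 integrated stress response genes were above 0, with or without a CARE match.

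**Figure D4:**
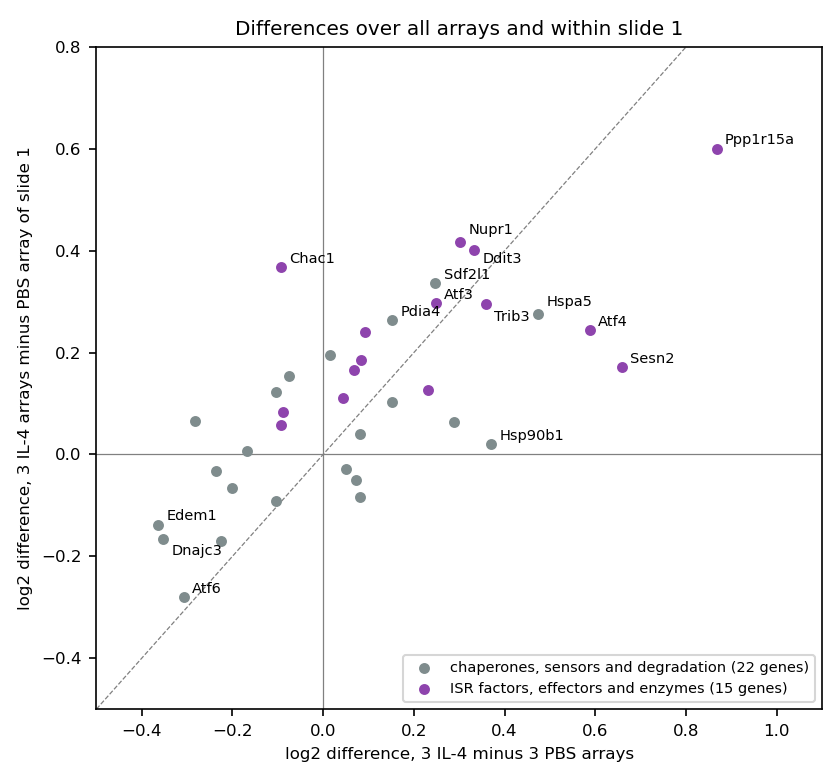
For each of the 37 genes, the log2 difference of 3 IL-4 minus 3 PBS arrays (x axis) and of the 3 IL-4 arrays minus the PBS array of slide 1 (y axis); the dashed line marks equal values. The 15 transcription factors, effectors and enzymes (purple) lie above the horizontal zero line; the other 22 (grey), among them the eIF2 kinases Eif2ak3 and Eif2ak4, lie on both sides of it.

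Of the sensors and their transcription factors 3 of 5 read below PBS, and limma called none of the 5 genes, with 1 (Atf6) at an unadjusted p under 0.05. Atf6 read -2.78, -2.67 and -2.48 with IL-4 and -2.36, -2.38 and -2.26 with PBS, without overlap. Its difference of -0.31 (SE 0.11, limma adjusted p = 0.11) was -0.28 within slide 1. Eif2ak4 (GCN2) read 3.23, 3.15 and 3.14 against 3.34, 3.58 and 3.27, a difference of -0.23, and -0.17 within slide 1. Xbp1, whose mRNA IRE1 splices, read 4.89, 4.78 and 4.90 against 4.89, 5.27 and 5.12, so that the PBS array of slide 1 matched the IL-4 arrays; the difference was -0.24 over 6 arrays (-0.39 with quantile normalization) and -0.03 within slide 1. Ern1 (IRE1) lay the other way, at -1.37, -1.34 and -1.31 against -1.45, -1.45 and -1.58, a difference of 0.15 (SE 0.10, limma adjusted p = 0.29), and 0.10 within slide 1. The groups of Eif2ak3 (PERK) overlapped, with a difference of 0.08 over 6 arrays and -0.08 within slide 1.

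ER-associated degradation returns failed proteins to the cytosol for the proteasome. Of its 4 genes limma called none, 1 (Edem1) had an unadjusted p under 0.05, and the median log2 difference was -0.12, and -0.01 within slide 1. Edem1, a lectin that picks out misfolded glycoproteins, read 2.44, 2.37 and 2.35 with IL-4 and 2.52, 2.88 and 2.84 with PBS. Its groups did not overlap, and the difference of -0.36 (SE 0.12, limma adjusted p = 0.088) was -0.14 within slide 1. Syvn1, the ubiquitin ligase HRD1, read 3.54, 3.42 and 3.52 against 3.48, 3.78 and 3.71. Herpud1, an adaptor of that ligase, read 2.93, 2.72 and 2.81 against 2.67, 3.01 and 3.01. In both, the PBS array of slide 1 was low and the groups overlapped; the differences were -0.17 and -0.08 over 6 arrays and 0.01 and 0.15 within slide 1. Sel1l, the scaffold of HRD1, gave 0.05 and -0.03.

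Within the IL-4 group most members were lowest on the same array, and so were most of the other pathway genes. IL-4 replicate 2 read lowest of the 3 IL-4 arrays for 27 of the 37 members (73.0%) and for 73.8% of the 80 other pathway genes tested, against 37.6% of all genes. The median member stood 0.14, 0.01 and 0.08 above its PBS mean in IL-4 replicates 1, 2 and 3, and the median of the 15 transcription factors, effectors and enzymes 0.30, 0.04 and 0.24; for all genes the values were -0.10, -0.06 and 0.02. PBS replicate 1 was lower than both other PBS arrays for 20 members and higher than both for 12, shares (54.1% and 32.4%) near those of all genes (50.3% and 32.3%).

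For 5 members the array holds 2 probes, all well above background on all 6 arrays, and the brighter was reported. Over 6 arrays they differ in direction for 3 of the 5. The brighter Atf4 probe gave a log2 difference of 0.59 and the dimmer -0.07, and within slide 1 they gave 0.24 and 0.14. For Pdia6, 2 probes assigned to the same transcript gave 0.29 and -0.30, and 0.06 and -0.10 within slide 1. For Psat1 they gave 0.08 and -0.20, for Phgdh -0.09 and -0.13, and for Dnajb9 -0.20 and -0.03. Within slide 1 these were 0.19 and 0.08, 0.06 and 0.13, and -0.07 and 0.17. The dimmer Dnajb9 probe read -0.73, -0.86 and -0.75 with IL-4 and -0.95, -0.55 and -0.74 with PBS, with overlap.

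**Figure D5:**
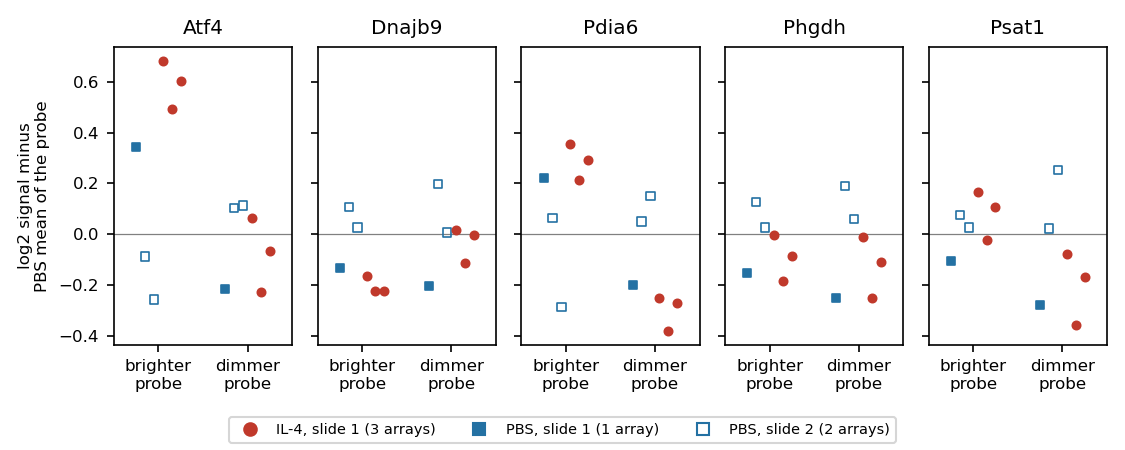
Log2 signal of both probes of 5 genes on each array, minus the PBS mean of the probe; symbols as in the plot of all members. In Atf4 and Pdia6 the brighter probe has the IL-4 arrays above the PBS arrays of slide 2, and the dimmer probe of Pdia6 has them below.

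Beyond the 37 members, 82 other genes of the same pathways were listed and 80 could be tested. Limma called 0 of them higher and 3 lower, 77 were not called, and 23 had an unadjusted p under 0.05. Over all genes 0.807% were called higher, 2.54% lower, and 34.1% had such a p, so 3 of 80 is near the background. Dnajc10 (ERdj5), the reductase that opens disulfide bonds of proteins bound for degradation, read 0.61, 0.62 and 0.62 with IL-4 and 1.15, 1.23 and 1.08 with PBS. All PBS arrays stood together here, and the gene was lower with IL-4 by 0.54 on the log2 scale (SE 0.10, limma adjusted p = 0.037), and by 0.53 within slide 1. Erlec1, a lectin of ER-associated degradation, read -2.90, -2.59 and -2.91 against -2.01, -2.14 and -2.20. It was lower by 0.68 (SE 0.12, limma adjusted p = 0.038), and by 0.79 within slide 1. Cnpy2, an ER-resident saposin-like protein, read 1.52, 1.38 and 1.43 against 1.89, 2.25 and 2.27. It was lower by 0.69 (SE 0.13, limma adjusted p = 0.04), and by 0.44 within slide 1. With the slide block, limma called none of these 3, at adjusted p of 0.2, 0.18 and 0.25. Leaving out any 1 array other than PBS replicate 1 also ended all 3 calls, with adjusted p from 0.14 to 0.17 for Dnajc10, 0.11 to 0.17 for Erlec1 and 0.14 to 0.18 for Cnpy2, while their log2 differences stayed between -0.50 and -0.79.

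The lists of these other genes had median log2 differences of -0.15 for 19 genes of folding, oxidation and translocation, -0.22 for 15 of ER-associated degradation, -0.09 for 11 ER-bound factors and their proteases, 0.05 for 9 kinases and subunits of eIF2 and eIF2B, and 0.01 for 26 other ATF4 targets and tRNA synthetases. Within slide 1 the medians were -0.04, -0.03, -0.04, 0.12 and 0.19. There 21 of the 26 ATF4 targets and synthetases were above 0 (80.8%), against 51.2% of all genes, a share not matched for brightness.

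Of the 2 genes with the largest difference in each of these lists, 7 were not called. Ube2g2, a conjugating enzyme of ER-associated degradation, read 3.52, 3.43 and 3.54 with IL-4 and 3.12, 2.45 and 2.24 with PBS, a difference of 0.89 (limma adjusted p = 0.054), and 0.38 within slide 1. Cbs, the first enzyme of transsulfuration, read 2.64, 2.90 and 2.97 against 2.29, 0.66 and 0.38, a difference of 1.73 (limma adjusted p = 0.058), and 0.55 within slide 1. In both, the PBS array of slide 1 stood well above the other PBS arrays. The stress cytokine Gdf15 read 6.06, 5.79 and 6.04 against 5.62, 5.40 and 5.17, a difference of 0.57 (limma adjusted p = 0.058), and 0.35 within slide 1. Creb3l1, an ER-bound factor related to ATF6, read -1.0, -1.03 and -0.99 against -0.84, -0.37 and -0.33, a difference of -0.49 (limma adjusted p = 0.071), and -0.16 within slide 1. The groups of these genes did not overlap. The probe of Creb3l2, a relative of Creb3l1, read -6.43, -4.69 and -4.64 against -4.84, -4.74 and -4.56, so that its difference of -0.54 (limma adjusted p = 0.39) came from IL-4 replicate 1, the other IL-4 arrays lying within the PBS range. The eIF2B subunit Eif2b4 read 0.75, 0.61 and 0.61 against 0.85, 1.29 and 1.25, a difference of -0.47 (limma adjusted p = 0.07), and -0.19 within slide 1. The double-stranded RNA kinase PKR (Eif2ak2) read -0.43, -0.19 and -0.16 against 0.06, 0.20 and 0.06, a difference of -0.37 (limma adjusted p = 0.074), and -0.32 within slide 1. In both, every IL-4 array was below every PBS array.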

How the data were processed

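Cy3-labelled total RNA of 6 BV2 samples was scanned on 6 arrays. The deposited files hold intensity values: per the file headers the authors ran Agilent Feature Extraction 11.0.1.1, whose processed signal is background-subtracted. The authors' deposited log2 value table was used as an alternative. Control spots and outlier-flagged spots were dropped, copies of a probe averaged, and log2 signals scaled to the 75th percentile of each array. Probes well above background on all 3 arrays of a group were tested with limma 3.58.1 (R 4.3.3), using the brightest probe of a gene and Benjamini-Hochberg adjustment over 29752 genes and unnamed transcripts; a gene was called at an adjusted p under 0.05. The script was tested on simulated data. RefSeq transcripts named 27234 of 39429 probes. The number of arrays limits the precision.

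Slides were read from scan times and array positions. Every member is named; values by array are given for called members, those whose groups do not overlap, and the 3 largest differences of each role list, and, of the other pathway genes, for those called and the 2 largest of each list. The members and lists were chosen with earlier results of these data known. The labels do not say whether replicate numbers pair the arrays. Deviations from the group means correlated at 0.083, -0.016 and 0.296 for same-numbered arrays and at -0.19 to 0.064 for the others. This cannot settle the pairing, because the deviations of the PBS arrays also carry the difference between slides.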

Additional observations from a re-analysis of the deposited data

How the results depend on the processing

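Under 19 alternatives, 22 of the 37 members kept their sign and 15 did not, the latter at most 0.29 in size; the causes were not tested. Members called (1 as reported) were 0 with the slide block, with slide 1 alone and with no background filter, 2 with the replicate block and in the authors' table, 3 with normexp scaled to the 75th percentile and with only probes detected on every array (Atf4 and Hspa5 beside Ppp1r15a in both), and 0 to 12 leaving out 1 array. Genes called (997) were 9 with the slide block, 1 on slide 1, 3770 with the replicate block, 2636 with quantile normalization, 1733 with median scaling, 523 with the percentile over probes above background, 4055 and 3077 with normexp (75th percentile and quantile), 2288 in the authors' table, 15 with no filter, 3808 with probes detected on every array, 605 with the mean of probes, and 0 to 12654 leaving out 1 array. Without PBS replicate 1, which leaves treatment and slide coinciding, 12654 genes and 12 members (7 higher, 5 lower) were called. Other pathway genes called (3) were 0, 0, 7, 6, 5, 16, 12, 5, 0 and 9 with the slide block, slide 1, replicate block, quantile, median scaling, normexp (75th percentile, quantile), authors' table, no filter and detection on every array, and 0 to 30 leaving out 1 array. Ppp1r15a was not called with the slide block or slide 1 (0.60 in each) or with no filter (0.87, adjusted p = 0.072), and ranged from 0.75 to 1.00 leaving out 1 array.

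Log2 differences of the other sign, with the slide block and slide 1 alike, were Manf -0.049, Calr 0.066, Pdia3 0.12, Eif2ak3 -0.084, Herpud1 0.15, Syvn1 0.0069, Sel1l -0.029, Chac1 0.37, Phgdh 0.057 and Shmt2 0.084. With quantile normalization they were Creld2 -0.0095, Asns -0.10 and Psat1 -0.11, in the authors' table Asns -0.079 and Psat1 -0.092, and with the mean of probes Pdia6 -0.0070 and Psat1 -0.057. With normexp at the 75th percentile they were Creld2 -0.0025, Sel1l -0.022 and Chac1 0.025, and with normexp and quantile Creld2 -0.0086, Pdia6 -0.042, Sel1l -0.048, Chac1 0.051, Asns -0.13 and Psat1 -0.080. Leaving out 1 array gave Creld2 -0.077 to 0.087, Eif2ak3 -0.038 to 0.16, Ppp1r15b -0.00044 to 0.071 and Chac1 -0.32 to 0.079.

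The replicate block, whose pairing the labels do not state, left Ppp1r15a called (limma adjusted p = 0.032). The planned normexp on mean signals was not run; normexp on median signals was chosen in its place after seeing the data. All member probes were well above background on all 6 arrays. As 20 of 23 markers of other cell types were too, this does not show that a low signal is specific to its gene. Every within-slide value is limited by its 1 PBS array.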
